A study of Homo sapiens with 19 samples.

Results

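The nucleotides described here are 18 sites of human ribosomal RNA (rRNA) whose ribose methylation score was short of complete in a control clone of Kasumi-1 cells. They were chosen by their score in that one library, which had to be under 0.9, and by their annotation, which had to be neither a snoID label nor Unknown. This gave 18 of the 120 sites scored. Of these, 5 were among the 47 scored sites of 18S rRNA, 12 among the 71 of 28S rRNA and 1 among the 2 of 5.8S rRNA. The control clone scores therefore describe the choice and were not tested, and neither was any contrast that uses that library.

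Ribose methylation of rRNA is made by fibrillarin (FBL), the enzyme of the small nucleolar particles named box C/D. In each such particle a guide RNA, a SNORD, pairs with the rRNA and places the enzyme over 1 nucleotide. Most human SNORDs are processed from introns of host genes, many of which encode ribosomal proteins or are noncoding small nucleolar RNA host genes (SNHG). Many rRNA sites are methylated in nearly every ribosome, while others carry the mark in only some of them. In RiboMethSeq, RNA is broken by alkali and the fragment ends are counted. A methylated ribose protects the bond next to it, so few ends fall there. Score C is 1 minus the end count next to the site divided by the weighted mean count of the 6 positions on either side (the flanking count), and it is set to 0 where negative. A score near 1 stands for methylation in nearly all molecules, and lower scores for a smaller share.

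The series holds 19 libraries in 11 groups, all from the established human cell line Kasumi-1, derived from acute myeloid leukaemia and grown with 20% serum. Of these, 14 came from cells treated with doxycycline at 100 ng/ml, in 7 groups of 2: control knockdown (KD) with no vector or with an empty one, and FBL KD with no vector, an empty one, wild-type FBL, or a mutant titled FBLTri or FBLQua. The other 5 libraries were untreated and had 1 sample each: SNORD127 knockout clones C1 and C34, clone C1 with an empty vector, clone C1 with SNORD127 put back, and the control clone. For the mutants, titles and column names do not match (Dual stands for FBLTri and Tri for FBLQua), and the titles were followed. The FBL KD columns are numbered shFBL1 and shFBL2 without a vector and shFBL4 with one, and the labels do not say what the numbers mark. The control clone is a control only by its title, since its column name has the form of the knockout clones. FBL and SNORD127 RNA are not measured by counts of rRNA ends, so the knockdown, the re-expression and the knockout cannot be checked on their targets here. Whether replicates came from different cultures is not in the labels, so the p-values rest on a spread between libraries that may be technical.

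Libraries held 5533150 to 18835537 end counts. In 1 of them, control KD with empty vector replicate 2, 20.79% of all counts lay at a single 28S position, against 2.56% to 4.9% at the top position of the others. The count behind a site sets its precision. Flanking counts at the 18 sites ranged over the 19 libraries from 27.3 to 112349.1, with a median of 1359.9. The knockdown libraries without a vector were shallower at these sites. Their median flanking count was 194.7 and 418.6 in FBL KD and 310.3 and 821.2 in control KD, against 1148.6 to 2048.9 in the vector-bearing knockdown libraries. By library, the median counting half-width of the 95% interval of score C over the 18 sites was 0.0165 to 0.1004. These half-widths cover counting error only, because without molecular identifiers several reads can come from 1 molecule.

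The guides of 17 of the 18 sites are named in the deposited annotation, 21 SNORDs in all. All 21 matched the RefSeq gene table (assembly GRCh38.p14, used for names and neighbours only), and all 21 lie within another gene, 15 of them within a protein-coding one. Of the 17 sites, 13 have 1 named guide and 4 have 2 or more. The positions are rRNA positions in the deposited numbering, so no genome coordinates apply.

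Guides carried by ribosomal protein genes served 4 sites. Those were 28S-1303 with SNORD21 from the RPL5 gene, a region that DIPK1A also spans (0.836 in the control clone), 28S-4020 with SNORD102 from RPL21 (0.762), 28S-4590 with SNORD72 from RPL37 (0.885) and 18S-462 with SNORD14A and SNORD14B from RPS13 (0.885). SNORD14, or U14, is also known for a role in 18S rRNA maturation beyond its guide function. Noncoding host genes carried the guides of 6 sites. SNORD50A, in SNHG5, is named for both 28S-2848 (0.887) and 28S-2863 (0.757), so these neighbours share a guide. The others were 28S-1868 with SNORD48 in SNHG32 (0.696), 28S-2774 with SNORD99 in SNHG12 (0.820), 28S-3723 with SNORD87 in SNHG6 (0.883; this guide also lies within MCMDC2) and 28S-4362 with SNORD1A, SNORD1B and SNORD1C in SNHG16 (0.845). SNORD48 is widely used as a reference RNA in small RNA assays.

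Genes with other roles carried the remaining guides. 18S-1272 has SNORD66 from EIF4G1, the scaffold of the cap-binding complex in translation initiation, and scored 0.694 in the control clone. 18S-1447 has SNORD127 from PRPF39, a splicing factor gene, and scored 0.543. 28S-4560 has SNORD119 from SNRPB, which encodes a core spliceosome protein, and scored 0.692. 28S-4588 has SNORD91A and SNORD91B from TSR1, a ribosome maturation factor gene, and scored 0.625. At the other 3 sites a gene of membrane traffic holds the guides. 28S-2402 has SNORD143 and SNORD144 within SEC31A, which encodes a coat protein of vesicles, and also within the noncoding THAP9-AS1, and scored 0.353. 18S-174 has SNORD45C from RABGGTB, a Rab prenyltransferase subunit gene (0.873), and 5.8S-14 has SNORD71 from AP1G1, a clathrin adaptor gene (0.861). The last of the 18, 18S-1668, is annotated only as Um1668, with no guide. It scored 0 in all 19 libraries: ends next to it outnumbered its flanks everywhere, and before setting to 0 its score ran from -0.4567 to -0.1133. Its selection therefore rests on a score of 0 rather than on an intermediate level.

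The sites just under the threshold were 28S-2848 (0.8869), 18S-462 (0.8853) and 28S-4590 (0.8847), and those just above it were 28S-4607 (0.9162), 18S-99 (0.9184) and 28S-2388 (0.9201). Counting half-widths of the 18 sites in the control clone were 0.0094 to 0.0671. Another scored site lay within 6 nucleotides of 5 of the 18, namely 18S-174, 18S-462, 18S-1447, 28S-4588 and 28S-4590. At those the flanks hold part of the neighbour's signal, and 28S-4588 and 28S-4590 are each other's neighbours.

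Most of these sites also scored under 0.9 in the 4 control KD libraries, which the choice did not use. The mean over those 4 was under 0.9 at 14 of the 18, and all 4 libraries were under 0.9 at 12; both counts include 18S-1668, which was at 0 there. Of the 89 annotated sites that scored 0.9 or more in the control clone, none had a mean under 0.9 in control KD. The median of the control KD means was 0.757 over the 18 sites and 0.981 over those 89. The sites also varied more between libraries: the median SD of the 4 control KD libraries was 0.0454, against 0.0114 for the 89 sites. The 4 sites with a control KD mean of 0.9 or more were 18S-462, 28S-4362, 28S-3723 and 28S-4590.

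FBL knockdown was compared with control knockdown over both backgrounds, without a vector and with the empty vector, in 4 against 4 libraries. Score C fell at 12 of the 18 sites and rose at none (limma, adjusted p under 0.05 over all 120 sites). Over all sites 71.7% fell and 1.67% rose, so the share that fell among the 18, 66.7%, was near the background. The median change was -0.286 over the 18 sites, -0.078 over the 89 other annotated sites and -0.085 over all 120. Of the 12 sites in 28S rRNA 11 fell, with a median change of -0.320, beside 83.1% of all 71 scored sites in 28S rRNA, where the median was -0.153. Of the 5 in 18S rRNA 1 fell, with a median of -0.082, beside 55.3% of all 47 in 18S rRNA, where it was -0.044. All 4 FBL KD libraries lay below all 4 control KD libraries at 11 of the 18 sites, a share of 61.1%, and at 59.2% of all 120. The median score of a library fell by 0.118 between control and FBL KD. With library medians made equal, which reports changes relative to that shift, 11 of the 18 sites fell and 4 rose, in place of 12 and 0. In that setting a site at 0 in every library, as 18S-1668 was, moves up by the whole shift. The 4 rises can therefore include 18S-1668, where no change could be measured.

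With negative scores set to 0, the SNORD48 site 28S-1868 had the greatest loss of the 18 sites; with scores not set to 0, with flanks of 2 positions and on a logit scale 28S-2402 lost more. 28S-1868 scored 0.759 and 0.695 in control KD and 0.781 and 0.789 in control KD with empty vector, against 0.041 and 0.090 in FBL KD and 0.022 and 0.074 in FBL KD with empty vector. No value of an FBL KD library came near a control value, and the change was -0.699 (SE 0.0283, limma adjusted p = 5.23e-08). The counts behind this can be read directly: 278 ends next to the site against a flanking count of 1269.2 in the first control library with empty vector, and 1136 against 1161.8 in the first FBL KD library with empty vector.

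The sites that share SNORD50A lost unequal amounts. At 28S-2863 the control libraries scored 0.764, 0.746, 0.701 and 0.774, and FBL KD scored 0.237 and 0.366 without a vector and 0.061 and 0.072 with it, a change of -0.562 (SE 0.0341, limma adjusted p = 5.77e-07). At 28S-2848 the controls scored 0.854, 0.885, 0.859 and 0.856, and FBL KD scored 0.615 and 0.721 without a vector and 0.344 and 0.411 with it, a change of -0.341 (SE 0.0428, limma adjusted p = 7.79e-05). At both, the groups were apart and the empty-vector libraries were the lowest; the difference between the sites was not tested.

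28S-2402, with SNORD143 and SNORD144, was the site where the score left its scale. Control KD scored 0.466 and 0.460 without a vector and 0.652 and 0.662 with it, while all 4 FBL KD libraries were at 0. The change was -0.560 (limma adjusted p = 1.76e-11), and its SE of 0.0067 was computed after negative scores had been set to 0. Before that step FBL KD scored -0.448 and -0.429 without a vector and -0.674 and -0.728 with it. In the first FBL KD library 162644 ends lay next to the site against a flanking count of 112349.1, and 28S position 2401, inside the flanks, was the most counted position of both FBL KD libraries without a vector and of control KD replicate 2. With scores not set to 0 the change was -1.13 (SE 0.0382, limma adjusted p = 8.78e-09).

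18S-1447, the SNORD127 site, scored 0.627 and 0.618 in control KD, 0.577 and 0.756 with the empty vector, 0.275 and 0.129 in FBL KD and 0.133 and 0.001 in FBL KD with empty vector. The groups did not overlap, though the FBL KD libraries were spread over a wide range, and the change was -0.510 (SE 0.0471, limma adjusted p = 9.43e-06). With all 8 libraries in the comparison it was the only one of the 5 sites in 18S rRNA that fell; at 18S-174 the call depended on 1 library.

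Among the guides from ribosomal protein genes, the SNORD102 site 28S-4020 fell from 0.795, 0.795, 0.743 and 0.694 to 0.400, 0.339, 0.338 and 0.302, a change of -0.412 (SE 0.0221, limma adjusted p = 2.38e-07). Its FBL KD libraries were close together in both backgrounds. 28S-1303, the SNORD21 site, fell from 0.848, 0.745, 0.884 and 0.908 to 0.481 and 0.263 without a vector and 0.628 and 0.659 with it, a change of -0.339 (SE 0.0449, limma adjusted p = 0.000109). Here the lowest values were in the libraries without a vector. 28S-2774, with SNORD99 from SNHG12, fell from 0.839, 0.876, 0.844 and 0.852 to 0.586, 0.628, 0.494 and 0.499, a change of -0.301 (SE 0.0234, limma adjusted p = 2.9e-06).

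The other 4 sites that fell changed by -0.296 (28S-4588, SE 0.0703), -0.276 (28S-3723, SE 0.0225), -0.255 (28S-4590, SE 0.0234) and -0.189 (28S-4560, SE 0.0603). The call at the SNORD119 site 28S-4560 depended on single libraries: it was lost without replicate 1 of any of the 4 groups, with changes of -0.132 without that of FBL KD, -0.164 without that of FBL KD with empty vector, -0.140 without that of control KD and -0.171 without that of control KD with empty vector. It was also lost when only the compared groups were fitted (limma adjusted p = 0.0611) and with library medians made equal. The change at 28S-4560 was -0.0098 without a vector (limma adjusted p = 0.977) and -0.369 with the empty vector (limma adjusted p = 0.00414). Its score in FBL KD replicate 2, 0.760, rests on 8 ends against a flanking count of 33.4. The other 11 calls held under every alternative that was run.

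Some sites kept nearly all of their score. 18S-462, the SNORD14 site, scored 0.972, 0.931, 0.892 and 0.897 in the controls, 1.000 and 0.963 in FBL KD and 0.841 and 0.869 in FBL KD with empty vector. The FBL KD libraries lay on both sides of the controls. This was the most thinly counted of the 18 sites: the FBL KD scores without a vector rest on 0 ends against a flanking count of 74 and 1 end against 27.3. The change over both backgrounds was -0.005 (95% interval -0.0307 to 0.021). 5.8S-14 scored 0.839, 0.870, 0.808 and 0.893 in the controls and 0.839, 0.846, 0.807 and 0.800 in FBL KD, which overlap, with a change of -0.030 (95% interval -0.0705 to 0.0109). 28S-4362, with the SNORD1 guides, scored 0.981, 0.994, 0.832 and 0.939 in the controls and 0.965, 0.967, 0.803 and 0.824 in FBL KD, a change of -0.047 (95% interval -0.108 to 0.0146). Without control KD with empty vector replicate 1, whose scores were the lower of its pair, 28S-4362 passed the test at -0.0737 and 5.8S-14 at -0.0511. Replicate 2 of that group is the library with 20.79% of its counts at a single position. With replicate 2 left out in its place, the changes were -0.0201 at 28S-4362 and -0.0086 at 5.8S-14. With library medians made equal all 3 changes turned positive, to 0.113 at 18S-462, 0.0883 at 5.8S-14 and 0.0713 at 28S-4362. 18S-1668 was at 0 throughout, so no change could be measured there.

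At 18S-1272, the SNORD66 site, the change was -0.082 with a 95% interval of -0.164 to 0.0002, which missed the threshold (limma adjusted p = 0.0681). It passed without FBL KD replicate 2 (-0.105) or control KD replicate 1 (-0.112). 18S-174, the SNORD45C site, depended on the control library that stands apart. It scored 0.948, 0.916 and 0.825 in 3 control libraries and 0 in control KD with empty vector replicate 2, against 0.648, 0.567, 0.348 and 0.429 in FBL KD. With that library the change was -0.174 (SE 0.152, limma adjusted p = 0.313), and without it -0.3805 (SE 0.0652, limma adjusted p = 0.00106). The other sites can be put beside these as the share of the control KD mean that FBL KD kept. Over the 17 sites with a score above 0 the median was 64.7% (0% to 99.5%), with 5 sites under 50%; over the 89 other annotated sites it was 91.9% (36.5% to 101.3%), with 1 under 50%.

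The backgrounds have no library in common, so each gives its own estimate. Without a vector 10 of the 18 sites fell and none rose (55.6%; 59.2% of all 120 fell and 1.67% rose), with a median change of -0.225. With the empty vector 13 fell and none rose (72.2%; 67.5% of all 120 fell and 0.833% rose), with a median of -0.360. With library medians made equal 8 fell and 3 rose without a vector, and 11 fell and 3 rose with it. These rises can again include 18S-1668, which was at 0 throughout. Across the 18 sites the changes in the backgrounds had r = 0.75 and rho = 0.69, a description over sites. With the empty vector 18S-1272 also fell, from 0.682 and 0.742 to 0.553 and 0.528, a change of -0.172 (limma adjusted p = 0.0145). That call was lost without FBL KD empty replicate 2 (-0.160) or control KD empty replicate 2 (-0.142), and with library medians made equal (-0.0342). In the latter setting the call of 28S-1303 with the empty vector was also lost (-0.1151). The call of 28S-4588 with the empty vector, -0.390, was likewise lost without control KD empty replicate 2 (-0.310, limma adjusted p = 0.056). Without control KD empty replicate 1, 28S-4362 (-0.126) and 5.8S-14 (-0.0899) passed with the empty vector, and 18S-174 passed as a rise of 0.389. Without replicate 2 of that group, 28S-4362 was at -0.0188 and 5.8S-14 at -0.0049. In that fit 18S-174, which scored 0 in replicate 2, passed as a fall of -0.437. The direction at 18S-174 with the empty vector thus turned on which control library was kept. With both kept the change there was -0.024. 18S-462 passed without FBL KD empty replicate 2 (-0.0539). Without a vector 28S-4588 passed when FBL KD replicate 1 was left out (-0.380), and 18S-462 passed in the upward direction without FBL KD replicate 2 (0.0485) or control KD replicate 1 (0.0506). Without a vector, the call of 28S-2848 at -0.202 was lost without FBL KD replicate 1 (-0.149) or control KD replicate 2 (-0.186). With library medians made equal the calls of 28S-2848 (-0.1033) and 28S-3723 (-0.0535) without a vector were lost.

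The difference between the effects in the backgrounds was itself tested. The loss was greater with the empty vector at 5 of the 18 sites and smaller at none (27.8%; 25% and 5% of all 120). At 28S-3723, with SNORD87 from SNHG6, control KD scored 0.911 and 0.968 and FBL KD 0.777 and 0.797 without a vector, and with it control KD scored 0.895 and 0.9502 and FBL KD 0.506 and 0.539. The effect was thus -0.152 without a vector and -0.400 with it. With library medians made equal the effect without a vector was -0.0535 (limma adjusted p = 0.157). The difference between the effects was -0.248 (SE 0.0450, limma adjusted p = 0.00477). It held under all alternatives except a logit scale (limma adjusted p = 0.304). At 28S-2402 the effects were -0.463 and -0.657, a difference of -0.194 that held under every alternative run. As every FBL KD library is at 0, this equals the difference between the control groups there; with scores not set to 0 it was -0.457. The other 3 calls, 28S-2848, 28S-2863 and 18S-462, were lost under several alternatives. Among the 8 fits that each left out 1 library, 28S-2848 ranged from -0.331 to -0.225 and did not pass in 7, 28S-2863 ranged from -0.281 to -0.153 and did not pass in 6, and 18S-462 ranged from -0.0905 to -0.0497 and did not pass in 6. Leaving out 1 library also added calls, some in the opposite direction. Without FBL KD replicate 1, 28S-1303 passed at 0.281, a smaller loss with the empty vector, and 28S-4560 at -0.473; without FBL KD replicate 2, 28S-4588 passed at -0.367; and without control KD replicate 1, 28S-4560 passed at -0.458. Without control KD empty replicate 1, 18S-174 passed at 0.713, 18S-1447 at -0.269 and 5.8S-14 at -0.0777. With control KD empty replicate 2 left out in its place, they were at -0.112, -0.0895 and 0.0074 in the same order. The shFBL numbers in the column names, depth and vector differ between the backgrounds together and cannot be told apart.

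Wild-type FBL was compared with the empty vector in FBL KD cells, 2 against 2 libraries. Score C was higher with wild-type FBL at 8 of the 18 sites and lower at none (44.4%; 57.5% of all 120 were higher and 0.833% lower). The median difference was 0.115 over the 18 sites and 0.058 over the 89 others. With library medians made equal 3 of the 18 were higher and 4 lower, in place of 8 and 0. Both 18S-1668 and 28S-2402 were at 0 in every library compared. In that setting they move down by the shift of 0.096 alone, so the 4 lower can include them. The comparisons with the empty vector in FBL KD share its libraries, so they are not independent of each other.

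28S-2863 scored 0.453 and 0.364 with wild-type FBL against 0.061 and 0.072, a difference of 0.342 (SE 0.0482, limma adjusted p = 0.000283). 28S-1868 scored 0.450 and 0.328 against 0.022 and 0.074, a difference of 0.341 (SE 0.0400). At both, the wild-type libraries lay well above the empty-vector ones, and both calls held under every alternative run. 28S-2848 scored 0.728 and 0.587 against 0.344 and 0.411 (0.279, SE 0.0605), and its call was lost when only the compared groups were fitted (limma adjusted p = 0.0513). 18S-1447 scored 0.316 and 0.279 against 0.133 and 0.001 (0.230, SE 0.0666). This call was lost without FBL KD empty replicate 2 (0.164, limma adjusted p = 0.108) or wild-type replicate 1 (0.212), and with library medians made equal. 28S-4020 scored 0.519 and 0.480 against 0.338 and 0.302 (0.180, SE 0.0312), and with library medians made equal the difference was 0.084 (limma adjusted p = 0.0787). The other sites called higher were 28S-2774 (0.155), 28S-4590 (0.128) and 28S-3723 (0.114). All of these lost the call with library medians made equal, at 0.0587, 0.0322 and 0.0177. 28S-2774 also lost it when only the compared groups were fitted (limma adjusted p = 0.0617), and 28S-4590 on a logit scale (limma adjusted p = 0.0829). At 28S-3723 the call was lost in both of those settings, and without FBL KD empty replicate 1 (0.0967) or wild-type replicate 2 (0.103).

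Against control KD with empty vector, wild-type FBL left 11 of the 18 sites lower and none higher (61.1%; 29.2% of all 120 were lower and 0.833% higher). Without control KD empty replicate 1, 18S-174 passed as higher with wild-type FBL (0.7085) and 5.8S-14 as lower (-0.0681). Replicate 2, the control library then left, scored 0 at 18S-174. With replicate 2 left out in its place, the differences were -0.1165 at 18S-174 and 0.0169 at 5.8S-14. The median difference was -0.199 over the 18 sites, -0.025 over the 89 others and -0.029 over all 120. As a share of the control level the wild-type score had a median of 76.6% over 17 sites and 97.4% over the 89 others. The greatest shortfall was at 28S-2402, where both wild-type libraries were at 0 and the controls at 0.652 and 0.662 (-0.657). Before setting to 0 the wild-type libraries scored -0.247 and -0.296, above the -0.674 and -0.728 of FBL KD with empty vector. With scores set to 0 that difference between wild-type FBL and empty vector does not show. 28S-1868 reached 0.450 and 0.328 against 0.781 and 0.789 (-0.396), and 28S-2863 reached 0.453 and 0.364 against 0.701 and 0.774 (-0.329). These 3 sites and 28S-3723, at 0.625 and 0.647 against 0.895 and 0.9502 (-0.286), kept their calls under every alternative run.

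18S-1447 with wild-type FBL, at 0.316 and 0.279, lay below its controls of 0.577 and 0.756 (-0.370, limma adjusted p = 0.00304), but not past the threshold when only the compared groups were fitted (limma adjusted p = 0.0607). 28S-4588 scored 0.443 and 0.472 against 0.685 and 0.845. Its difference of -0.308 (limma adjusted p = 0.0462) lost the call without control KD empty replicate 2 (-0.228) and without either wild-type library (-0.294 and -0.322). Of the other 5 sites called lower, 28S-2774 (-0.1965) and 28S-4020 (-0.2192) lost the call when only the compared groups were fitted. The limma adjusted p was then 0.0678 at 28S-2774 and 0.0607 at 28S-4020. The remaining sites, 28S-4560 (-0.302), 28S-2848 (-0.201) and 28S-4590 (-0.134), lost the call in that fit too and also depended on single libraries. Without control KD empty replicate 2 they were at -0.339, -0.202 and -0.102, none past the threshold. Without control KD empty replicate 1, 28S-4560 was at -0.265 and 28S-2848 at -0.199, also short of it. Without wild-type replicate 1, 28S-4560 was at -0.247 and 28S-4590 at -0.141, and without wild-type replicate 2, 28S-2848 was at -0.130 and 28S-4590 at -0.127, again short of it.

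Few of these sites passed the test between a mutant and the empty vector. With FBLTri 2 of the 18 were lower and 1 higher (11.1% and 5.56%; 20% and 16.7% of all 120), and with FBLQua none was lower and 1 higher (5.56%; 11.7% and 7.5% of all 120). The median differences were -0.049 for FBLTri and 0 for FBLQua. That 0 falls on 18S-1668 and 28S-2402, which were at 0 in every library compared. With FBLTri the SNORD50A sites went opposite ways: 28S-2848 scored 0.172 and 0.172 against 0.344 and 0.411 (-0.206, limma adjusted p = 0.0323), and 28S-2863 scored 0.243 and 0.276 against 0.061 and 0.072 (0.193, limma adjusted p = 0.0152). 18S-462 scored 0.783 and 0.779 with FBLTri against 0.841 and 0.869 (-0.074, limma adjusted p = 0.00682). With FBLQua 28S-2863 scored 0.266 and 0.205 (0.169, limma adjusted p = 0.0389).

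None of these 4 calls held under every alternative. 28S-2848 lost its call without FBLTri replicate 1 or 2 (-0.206 in both cases) and without FBL KD empty replicate 1 (-0.239) or 2 (-0.172). For FBLTri 28S-2863 lost it without FBLTri replicate 2 (0.177) or FBL KD empty replicate 1 (0.188) or 2 (0.198), and 18S-462 without FBL KD empty replicate 2 (-0.060). For FBLQua 28S-2863 lost its call without any 1 of the 4 libraries compared (0.138 to 0.199).

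Against wild-type FBL both mutants scored lower. FBLTri was lower at 11 of the 18 sites and higher at none (61.1%; 62.5% and 0% of all 120), and FBLQua at 8 and none (44.4%; 59.2% and 0.833% of all 120). The medians were -0.153 and -0.135 over the 18 sites, against -0.070 and -0.074 over the 89 others. The median score of a library was lower by 0.102 with FBLQua than with wild-type FBL, and with library medians made equal each mutant was lower at 4 of the 18 sites and higher at 4. Every library with a mutant or wild-type FBL was at 0 at 18S-1668 and 28S-2402. In that setting these sites move up by the shift alone, so the 4 higher can include them. 28S-1868 scored 0 and 0 with FBLTri and 0.008 and 0 with FBLQua, against 0.450 and 0.328 with wild-type FBL (-0.389 and -0.385, SE 0.0400 each). 18S-1447 scored 0 in all 4 mutant libraries, against 0.316 and 0.279 (-0.297 in both comparisons, SE 0.0666). The equal differences come from setting scores to 0. Before that step 18S-1447 scored -0.1576 and -0.1415 with FBLTri and -0.0394 and -0.0515 with FBLQua. At 28S-1868 the scores set to 0 were -0.0907 and -0.1872 with FBLTri and -0.0573 with FBLQua. 28S-2774 scored 0.439 and 0.448 with FBLTri and 0.401 and 0.462 with FBLQua, against 0.608 and 0.695 (-0.208 and -0.220). These 3 sites stayed called under every alternative run for both mutants.

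28S-2848 scored 0.172 and 0.172 with FBLTri and 0.462 and 0.319 with FBLQua, against 0.728 and 0.587 with wild-type FBL. The difference was -0.485 for FBLTri, held throughout, and -0.267 for FBLQua, which was lost when only the compared groups were fitted (limma adjusted p = 0.0727). 28S-4020 scored 0.315 and 0.336 with FBLQua against 0.519 and 0.480 (-0.174), and -0.0728 with library medians made equal. 28S-1303 scored 0.549 and 0.536 with FBLTri against 0.778 and 0.733 (-0.213), a call lost without either FBLTri replicate 1 (-0.220), FBLTri replicate 2 (-0.207) or wild-type replicate 1 (-0.191). The other calls were 28S-3723, 28S-4590 and 28S-2863 for both mutants, and 28S-4020, 18S-1272 and 18S-462 for FBLTri, at -0.176 to -0.066 for FBLTri and -0.173 to -0.089 for FBLQua. Single libraries also ended calls here. For FBLTri, 28S-2863 did not pass without FBLTri replicate 1 (-0.133) or 2 (-0.165) or wild-type replicate 1 (-0.104), and neither did 18S-1272 (-0.129, -0.141 and -0.0896 in the same order). For FBLQua, 28S-2863 did not pass without FBLQua replicate 2 (-0.143) or wild-type replicate 1 (-0.128), and neither did 28S-4590 (-0.0928 and -0.119). 28S-3723 with FBLQua did not pass without any 1 of the 4 libraries (-0.0998 to -0.0779). 18S-462 with FBLTri turned to 0.0308 with library medians made equal, and 28S-3723 with FBLQua to 0.0127.

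The empty vector alone was compared with no vector in control KD. Of the 18 sites 1 was higher and none lower (5.56%; 0.833% and 7.5% of all 120), and the median difference was -0.011. The exception was 28S-2402, at 0.652 and 0.662 with the vector and 0.466 and 0.460 without it (0.194, SE 0.0095, limma adjusted p = 2.26e-06). It was not past the threshold when only these groups were fitted (limma adjusted p = 0.154). 18S-174 passed as lower with the vector without control KD empty replicate 1 (-0.932), and 18S-462 without control KD replicate 2 (-0.0771). The value at 18S-174 rests on control KD empty replicate 2, which scored 0 there. Without that library the difference at 18S-174 was -0.1069.

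In the SNORD127 clones each state has 1 library, or 1 per clone, so the values are given without a test. 18S-1447 scored 0.178 in clone C1, 0.254 in clone C34 and 0.061 in clone C1 with the empty vector, and 0.951 in clone C1 with SNORD127, against 0.543 in the control clone. With SNORD127 put back, 108 ends lay next to the site against a flanking count of 2218.1, and with the empty vector 2109 against 2246.3. The score with SNORD127 was above that of each of the other 18 libraries, where the highest was 0.756. The difference between clone C1 with SNORD127 and with the empty vector was 0.890 at 18S-1447 and from -0.0544 to 0.0534 at the other 17 sites, with a median of -0.0004. Over the 89 other annotated sites it ran from -0.0543 to 0.0369.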

How the data were processed

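The authors deposited end counts for 7000 rRNA positions, as whole numbers without normalization, and score C, a fraction, for 120 sites in 19 libraries. Per the labels' protocols, 100 ng of RNA was hydrolysed at 95 °C for 12 min to about 30 nucleotides. Per the submitters' processing notes, cutadapt and Bowtie2 were among the tools used; their versions and settings and the reference were not given in the sources used here. Score C recomputed from the counts, with flank weights falling from 1 to 0.5, matched 2280 of 2280 deposited values within 1e-09.

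Groups came from sample titles. The 14 doxycycline-treated libraries were fitted together in limma 3.58.1 (R 4.3.3), with group coefficients and a trend in the variance; tests were two-sided, with p-values adjusted by Benjamini-Hochberg over 120 sites and a threshold of 0.05; the code was tested on simulated data. Tables were made with Python 3.11.15, numpy 2.4.6, scipy 1.17.1 and pandas 2.3.3. Counting intervals of score C are Poisson approximations at 95%. The members, their lists and the tests were chosen with earlier results of these data known. Values per library are given for the 8 greatest called and 4 smallest changes over both backgrounds, up to 5 called in each other comparison, and 18S-1447. The 5 SNORD127 libraries entered no test. Alternatives were a fit on the compared groups only, no trend in the variance, scores not set to 0, the logit of the score, flanks of 2 positions, leaving out the 10% of sites with fewest counts in their flanks, equal library medians, a replicate block and each library left out.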

Additional observations from a re-analysis of the deposited data

Results flagged for a closer look

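The effect of FBL knockdown differed between the libraries without a vector and those with the empty vector at 5 of the 18 sites, by the limma test of the difference itself. That is 27.8% of them, beside 25% of all 120 sites, so the share was near the background. The difference was -0.2777 at 28S-2848, -0.2476 at 28S-3723, -0.217 at 28S-2863, -0.194 at 28S-2402 and -0.0701 at 18S-462, in each case a greater loss with the empty vector. At 18S-462, where the scores without a vector rest on 0 and 1 ends against flanking counts of 74 and 27.3, the FBL KD libraries without a vector, at 1.000 and 0.963, were above most control libraries and those with the vector, at 0.841 and 0.869, were below all of them. Only the call at 28S-2402 held under every alternative run. Every FBL KD library compared there was at 0, so with scores set to 0 this difference equals that between the control groups. The difference between those control groups was not past the threshold when only they were fitted (limma adjusted p = 0.154).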

How the results depend on the processing

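Of 142 alternative counts of called sites, 112 stayed within 1.5 times the reported count. With only the compared groups fitted, the count went from 5 to 3 for the difference between backgrounds, from 8 to 5 for wild-type FBL against the empty vector, from 11 to 5 for wild-type FBL against control KD, from 3 to 5 for FBLTri against the empty vector, from 1 to 0 for FBLQua against it and from 1 to 0 for the vector in control KD. On a logit scale it was 2 for the difference between backgrounds, 1 for FBLTri against the empty vector and 2 for the vector in control KD; with scores not set to 0 it was 5 for FBLTri and 0 for FBLQua against the empty vector; and with library medians made equal it was 2 for the difference between backgrounds. Leaving out 1 library at a time gave 2 to 6 calls for the difference between backgrounds, 7 to 11 for wild-type FBL against control KD, 0 to 2 for FBLTri and 0 for FBLQua against the empty vector, 5 to 7 for FBLQua against wild-type FBL and 1 to 2 for the vector in control KD; for the knockdown it gave 11 to 13 over both backgrounds. With library medians made equal the knockdown changes over both backgrounds reversed at 18S-462 (0.1133), 5.8S-14 (0.0883) and 28S-4362 (0.0713). The replicate block left 12 calls for the knockdown over both backgrounds and gave 2 for the difference between backgrounds and 0 for FBLQua against the empty vector. Same-numbered libraries had deviations correlated from -0.226 to 0.694 over 21 pairs of groups, positive in 15 and over 0.1 in 12, with the highest for FBLQua and wild-type FBL; the labels tie the numbers to no shared batch, so pairing was not used. The block ended the calls of 28S-2848 and 28S-4588 for wild-type FBL against control KD (limma adjusted p = 0.051 and 0.0649), of 18S-1272 for FBLTri against wild-type FBL (0.0573), of 28S-2863 for FBLQua against the empty vector (0.0541), and of 18S-462, 28S-2848 and 28S-2863 for the difference between backgrounds (0.058, 0.0564 and 0.0564). Depth limits 18S-462 most, where a score rests on as few as 0 ends. The cause of each of these changes was not tested.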
